A study of Mus musculus with 12 samples.

Results

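The major urinary protein (Mup) genes Mup1, Mup3, Mup7, Mup10, Mup11, Mup16, Mup17, Mup20, Mup21 and Mup22, 10 in all, were followed in liver, out of 22 genes named Mup and a number and 36047 genes measured in all. These genes were chosen by symbol after their lower level in methionine-restricted mice was known, so their SAAR vs. Ctrl values are given below as a description, and counts of calls in that contrast stand only beside the share over all genes. Liver RNA was sequenced from 12 adult male C57Bl/6J mice aged 5 to 6 months, single-housed, fed an experimental diet for 7 days and without food for 4 h before death. By the paper's description, mice of all groups were also given deuterium oxide, first injected and then in the drinking water. The 4 groups held 3 mice each: RF.Ctrl (regular-fat control diet), RF.SAAR (regular-fat diet restricted in sulfur amino acids), HF.Ctrl (high-fat control) and HF.SAAR (high-fat restricted). Fat supplied 18% of dietary energy in the regular-fat diets and 60% in the high-fat diets. No diet contained cysteine, the controls included, and in the restricted diets part of the methionine was exchanged for glutamic acid.

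Major urinary proteins are small lipocalins, barrel-shaped carriers that hold hydrophobic molecules. Hepatocytes secrete them into blood, the kidney filters them into urine, and in male mice they bind and slowly release volatile pheromones. Their genes lie side by side in a tandem array and are transcribed far more in male than in female liver, because the pulses of growth hormone in males act through its receptor and the transcription factor STAT5B, with androgen, glucocorticoid and thyroid hormone also contributing. Mup20 encodes darcin, a protein pheromone that attracts females by itself.

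All 10 genes passed the filter on low counts and were among the 14670 genes tested. The files held 16203094 to 21230092 estimated counts per mouse, the most in HF.Ctrl mouse 2. The 7 hepatocyte markers were above 0 in every mouse, with albumin (Alb) at 50384 to 69762 CPM (estimated counts scaled to a common library size, with TMM factors), so the tissue label held. The summed hepatocyte list lay between 78329 and 90818 CPM among RF.Ctrl mice, 69450 and 78023 among RF.SAAR mice, 76643 and 86249 among HF.Ctrl mice and 72347 and 82507 among HF.SAAR mice, so it was lower in every RF.SAAR mouse than in any RF.Ctrl mouse and overlapped on high fat. All 20 pancreatic acinar genes were found, and their sum lay between 71.2 and 1340 CPM among RF.Ctrl mice, 40.1 and 82.97 among RF.SAAR mice, 65.7 and 5920 among HF.Ctrl mice and 64.98 and 16801 among HF.SAAR mice. Summed Kupffer cell markers stayed between 214 and 363 CPM, adipose markers between 5.98 and 31.2 and skeletal muscle markers between 236 and 829, with every listed gene above 0 in some mouse. The part of these other cells in the results below was not tested. In bulk liver, fewer hepatocytes and less Mup RNA in each hepatocyte cannot be told apart.

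The copies are so alike that their sequences decide how far one gene can be told from the next. The 22 genes span chr4:59956804-62150863 (GRCm38). All 10 coding sequences had 6 coding exons and 540 to 552 bases. Mup1, Mup7, Mup10, Mup11, Mup16, Mup17 and Mup22 shared at least 98.3% of coding bases with each other, whereas Mup20 reached at most 91.3% with any other member. Mup3 and Mup21 formed a pair at 94.7% and differed more from the rest. A stretch of 60 bases in the second coding exon shows this. It is read 5′ to 3′ on the minus strand of chromosome 4 (GRCm38, GENCODE transcripts), where Mup7 lies at chr4:60069806-60069865, Mup22 at chr4:60820921-60820980, Mup16 at chr4:61518926-61518985, Mup17 at chr4:61595266-61595325, Mup20 at chr4:62053553-62053612, Mup3 at chr4:62086873-62086932 and Mup21 at chr4:62150268-62150327. Capitals mark bases that differ from Mup7.
Mup7: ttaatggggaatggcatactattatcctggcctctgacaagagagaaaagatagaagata
Mup1, Mup10, Mup11 and Mup22: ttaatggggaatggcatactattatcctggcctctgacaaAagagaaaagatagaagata
Mup16: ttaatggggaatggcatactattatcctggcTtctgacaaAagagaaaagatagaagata
Mup17: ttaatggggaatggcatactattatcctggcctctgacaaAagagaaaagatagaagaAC
Mup20: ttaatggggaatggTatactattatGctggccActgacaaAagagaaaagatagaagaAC
Mup3: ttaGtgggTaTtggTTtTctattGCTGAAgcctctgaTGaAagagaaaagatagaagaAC
Mup21: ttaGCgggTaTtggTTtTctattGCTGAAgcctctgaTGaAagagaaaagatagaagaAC

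Mup1, Mup10, Mup11 and Mup22 were identical over these bases and differed from Mup7 at 1 position, against 6 positions for Mup20, 17 for Mup3 and 18 for Mup21. The counts were estimated by matching reads to transcripts through words of 31 bases (31-mers). A read that covers a word held by a single gene is assigned with certainty. A read can also be placed by the combination of its words, which was not counted here. Of the 31-mers in each gene's most counted transcript, 66.2% were found in Mup21 alone, 65.9% in Mup3 alone and 38.1% in Mup20 alone. The share was 17.9% for Mup10, 13.8% for Mup17, 7.11% for Mup11, 2.89% for Mup16, 1.56% for Mup1 and 1.45% for Mup7. Mup22 had none: 0 of its 831 words were its own, and Mup10 held 95.1% of them. By this measure the levels of Mup22, Mup7, Mup1 and Mup16 depended to a large degree on how shared reads were divided. Mup3, Mup21 and, less so, Mup20 rested more on sequence of their own.

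**Figure D1:**
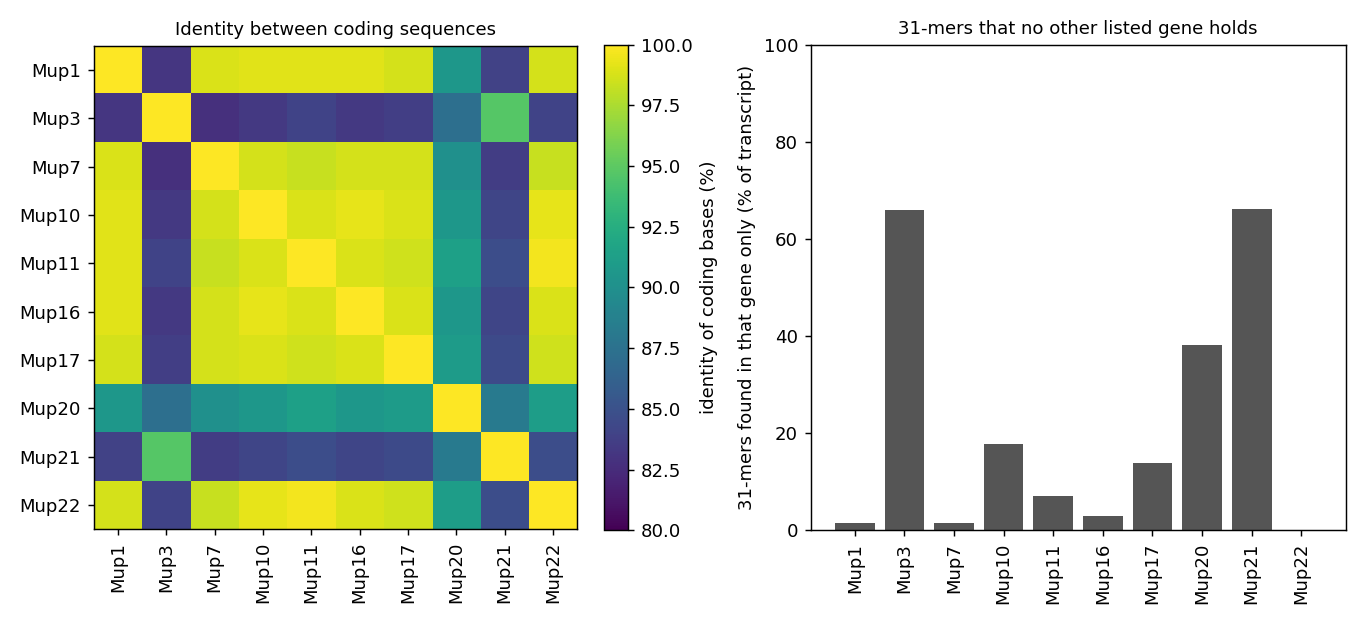
Left, identity of the coding bases (percent, colour scale from 80 to 100) between each pair of the 10 Mup genes. Right, the percentage of 31-mers in each gene's most counted transcript that no other listed gene holds; Mup21 (66.2%), Mup3 (65.9%) and Mup20 (38.1%) stand above the other members, and Mup22 is at 0.

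RefSeq promoters (GRCm38.p6) were at hand for 6 of the 10 genes, Mup3, Mup7, Mup10, Mup11, Mup17 and Mup21. The 250 bases before the RefSeq start are shown for the pair Mup3 and Mup21 and for Mup11 and Mup7. Mup3, Mup21 and Mup7 were all lower in restricted mice on both fat levels, and Mup11 was not lower on regular fat. Capitals mark TATAA, the core of a TATA box, and TGTTCT, which is AGAACA on the other strand and the half-site of glucocorticoid and androgen receptors. All 4 lie on the minus strand of chromosome 4, Mup3 at chr4:62087318-62087567, Mup21 at chr4:62150842-62151091, Mup11 at chr4:60662396-60662645 and Mup7 at chr4:60070476-60070725.
Mup3: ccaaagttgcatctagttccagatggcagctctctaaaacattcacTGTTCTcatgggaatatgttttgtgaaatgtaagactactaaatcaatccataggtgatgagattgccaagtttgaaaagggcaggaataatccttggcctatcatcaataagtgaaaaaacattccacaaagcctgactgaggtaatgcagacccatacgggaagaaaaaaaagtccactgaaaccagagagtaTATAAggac
Mup21: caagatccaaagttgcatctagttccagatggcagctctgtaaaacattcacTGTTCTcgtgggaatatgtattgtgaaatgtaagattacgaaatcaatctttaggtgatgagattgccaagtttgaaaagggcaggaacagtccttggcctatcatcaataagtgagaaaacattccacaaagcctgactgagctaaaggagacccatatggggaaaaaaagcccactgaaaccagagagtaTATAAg
Mup11: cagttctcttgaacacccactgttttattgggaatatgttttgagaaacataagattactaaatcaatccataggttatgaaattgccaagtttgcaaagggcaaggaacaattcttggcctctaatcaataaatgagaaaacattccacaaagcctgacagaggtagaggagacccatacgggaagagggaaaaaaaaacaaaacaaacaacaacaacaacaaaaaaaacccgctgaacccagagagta
Mup7: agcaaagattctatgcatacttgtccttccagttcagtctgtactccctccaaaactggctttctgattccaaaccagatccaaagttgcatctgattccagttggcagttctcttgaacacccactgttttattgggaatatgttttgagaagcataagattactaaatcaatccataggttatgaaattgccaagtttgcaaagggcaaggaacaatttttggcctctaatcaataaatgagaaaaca

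After end-to-end alignment of each pair with gaps allowed, Mup3 and Mup21 matched at 91.2% of these bases. Mup10 and Mup17 matched at 92.4%, and Mup7 and Mup11 at 56.8%. The last bases of the Mup7 window lie well inside the Mup11 window. The 56.8% therefore also carries where the starts are annotated, and not the sequence alone. AGAACA, searched on both strands, was present in Mup3 and Mup21 and in none of the other 4 members matched, against 16.1% of all 32851 promoters of that length. TATAA was present in Mup3, Mup10, Mup17 and Mup21 (22.8% of all promoters) and CCAAT in Mup7, Mup11 and Mup17 (33.8%). Counted from the RefSeq start, TATAA lay at -9 to -5 in Mup3 and at -6 to -2 in Mup21. The RefSeq start lies 25 bases inside the GENCODE transcript for Mup3, 22 for Mup21, 44 for Mup10 and 39 for Mup17. Each TATAA thus lies in bases that GENCODE counts as transcribed. TTCNNNGAA, the motif of STAT proteins, was found in 0 of the 6 windows and in 7.02% of all promoters. These matches describe the letters of the windows alone, and the windows are not in register. The Mup11 window stops just before the bases where Mup17 holds TATAA, and the Mup7 window stops further upstream. The Mup10 and Mup17 windows begin within or past the stretch where Mup3 and Mup21 hold TGTTCT. A motif missing from a window may thus lie outside it.

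The 10 genes gave a large part of all liver transcripts, and a smaller part in restricted mice. Their share of all estimated counts was 10.7%, 8.24% and 9.31% in the RF.Ctrl mice and 6.07%, 7.58% and 7.48% in the RF.SAAR mice. It was 11.3%, 13.8% and 10.02% in the HF.Ctrl mice and 5.93%, 7.36% and 4.97% in the HF.SAAR mice. No restricted mouse reached the lowest control mouse of its fat level. The group means were 9.40% ± 1.21 in RF.Ctrl, 7.04% ± 0.842 in RF.SAAR, 11.7% ± 1.90 in HF.Ctrl and 6.09% ± 1.21 in HF.SAAR (SD, n = 3). The difference of means was -2.36 percentage points on regular fat and -5.62 on high fat. By comparison, Alb, the most counted gene outside the family, took 5.72% of counts on average over the 12 mice. All 22 Mup genes together held 11.8% ± 1.69 in RF.Ctrl, 9.01% ± 1.2 in RF.SAAR, 15.2% ± 2.72 in HF.Ctrl and 7.71% ± 1.67 in HF.SAAR, and the 10 members made up 75.5 to 81.7% of that.

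**Figure D2:**
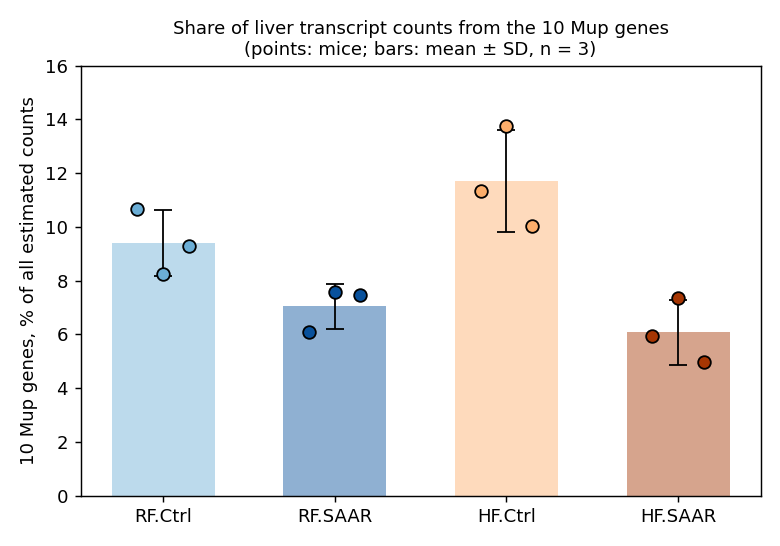
Share of all estimated counts (percent, vertical axis) from the 10 Mup genes in each of the 4 groups; points are mice, bars the mean and error bars 1 SD (n = 3). The RF.SAAR mice (6.07 to 7.58%) lie below the RF.Ctrl mice (8.24 to 10.7%), and the HF.SAAR mice (4.97 to 7.36%) below the HF.Ctrl mice (10.02 to 13.8%).

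With the 10 genes summed into 1 row and fitted beside all other genes (edgeR, TMM scaling), the family differed by -0.58 ± 0.21 (log2, SE) on regular fat (RF.SAAR vs. RF.Ctrl) and by -1.12 ± 0.21, a 2.18-fold lower level, on high fat (HF.SAAR vs. HF.Ctrl). Scaled by library size alone, the values were -0.42 and -0.95, with the median of all genes moved by 0.16 and 0.17 (log2). In the 7 mice with under 1000 CPM of pancreatic acinar genes, an alternative chosen after seeing the data that kept 1 mouse in each high-fat group, they were -0.46 and -0.87. Levels can be compared between genes only per length, as TPM, which scales counts by transcript length and library. On that scale the 10 genes together held 10.1 to 24.8% of all transcripts. Mup22 ranked 1st and Mup7 2nd of all genes by mean TPM over the 12 mice, Mup11 6th, Mup20 10th and Mup3 12th, and even the least abundant member, Mup10, ranked 290th.

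**Figure D3:**
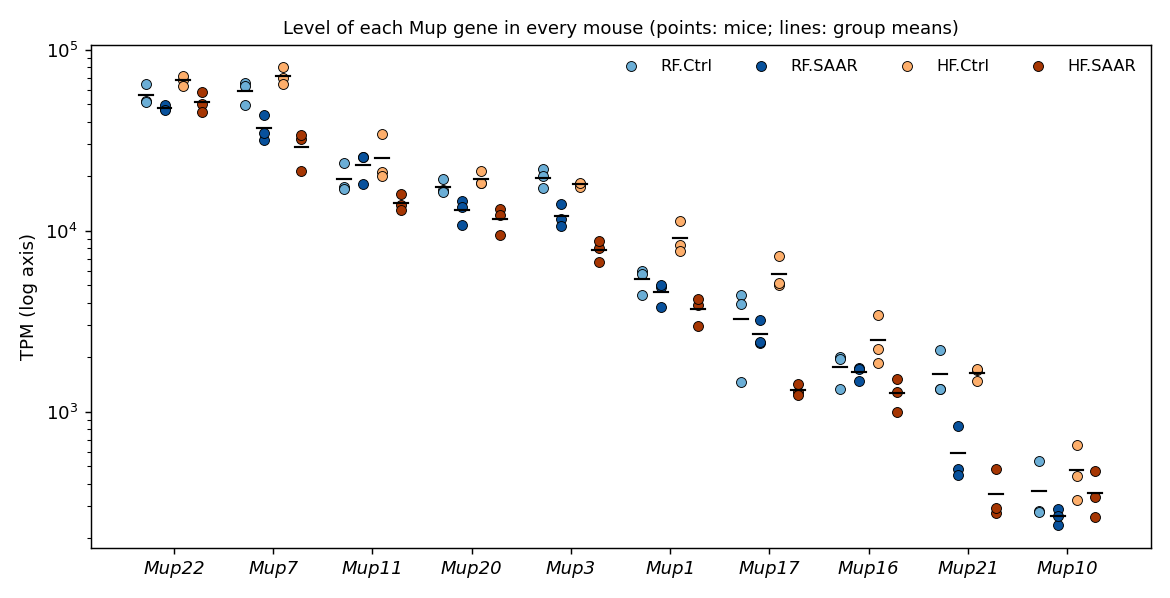
TPM on a log axis for each of the 10 Mup genes, ordered by mean level; points are mice, coloured by group, and short lines are group means (n = 3). Levels span from 237 TPM (Mup10 in an RF.SAAR mouse) to 79809 TPM (Mup7 in an HF.Ctrl mouse), and the restricted mice of Mup3, Mup7, Mup20 and Mup21 lie below the controls of the same fat level.

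Among the 3 members with the most sequence of their own, Mup21 showed the largest difference. It was at 2190, 1330 and 1328 TPM in RF.Ctrl and 481, 447 and 835 TPM in RF.SAAR. It was at 1706, 1481 and 1723 TPM in HF.Ctrl and 483, 274 and 294 TPM in HF.SAAR. The groups did not overlap on either fat level, and the fitted difference was -1.71 ± 0.29 (log2, SE) on regular fat and -2.54 ± 0.30 on high fat, a level 3.27-fold and 5.81-fold lower. Mup3, its closest relative in sequence, was at 21803, 19946 and 17123 TPM in RF.Ctrl and 11556, 10649 and 13997 TPM in RF.SAAR. On high fat it was at 18236, 17422 and 18467 TPM in HF.Ctrl and 8002, 8771 and 6723 TPM in HF.SAAR. Every restricted mouse was again below every control, with a difference of -0.94 ± 0.17 on regular fat and -1.47 ± 0.17 on high fat, the smallest SE among the members.

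Mup20, the darcin gene, was at 19196, 16881 and 16324 TPM in RF.Ctrl and 10787, 14536 and 13589 TPM in RF.SAAR. It was at 18244, 21496 and 18357 TPM in HF.Ctrl and 13119, 12207 and 9438 TPM in HF.SAAR. The groups did not overlap, and the fitted difference was -0.64 ± 0.22 (log2, SE) on regular fat and -1.02 ± 0.22 on high fat. Summed, the counts of Mup3, Mup20 and Mup21 averaged 22707 CPM ± 3456 among RF.Ctrl mice and 12954 ± 1896 among RF.SAAR mice, and 25325 ± 4175 in HF.Ctrl and 10673 ± 2418 in HF.SAAR (SD, n = 3). The mean of their log2 sums was different by -0.81 on regular fat and -1.26 on high fat in restricted mice. These sums rest less on dividing reads among the near-identical copies than those of the other members do.

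Mup7 and Mup22 were the most abundant members and behaved differently as listed. Mup7 was at 65448, 49331 and 62795 TPM in RF.Ctrl and 31830, 34748 and 43669 TPM in RF.SAAR. It was at 69423, 79809 and 64650 TPM in HF.Ctrl and 32312, 33910 and 21315 TPM in HF.SAAR, without overlap on either fat level. The fitted difference was -0.88 ± 0.25 (log2, SE) on regular fat and -1.50 ± 0.25 on high fat. Mup22 was at 64917, 52107 and 51661 TPM in RF.Ctrl and 47211, 49428 and 46523 TPM in RF.SAAR. On high fat it was at 68397, 71789 and 63072 TPM in HF.Ctrl and 50252, 58153 and 45092 TPM in HF.SAAR. Its fitted differences were -0.44 ± 0.19 and -0.63 ± 0.19. Since Mup22 had no 31-mer of its own, its smaller difference cannot be safely separated from that of the copies it shares reads with. Added together, the 16 Mup genes with under 20% of words of their own averaged 101565 CPM ± 17693 in RF.Ctrl, 71657 ± 12116 in RF.SAAR, 143722 ± 38394 in HF.Ctrl and 64792 ± 17956 in HF.SAAR (SD, n = 3). Their mean log2 sum differed by -0.50 on regular fat and -1.15 on high fat, and how reads were divided among these 16 does not enter that sum.

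Mup11 was the member that was not lower on regular fat, at 17387, 16904 and 23678 TPM in RF.Ctrl and 18095, 25626 and 25652 TPM in RF.SAAR. These groups overlapped, and the fitted difference was 0.07 ± 0.31 (log2, SE). That value ran from -0.090 to 0.26 when each mouse was left out, so its sign was not settled. Mup11 had 7.11% of its 31-mers to itself, so its level also depended on how shared reads were divided. On high fat it was at 21228, 34040 and 20146 TPM in HF.Ctrl and 13954, 15955 and 12975 TPM in HF.SAAR, a difference of -1.06 ± 0.31 without overlap. Mup17 was at 4412, 1456 and 3914 TPM in RF.Ctrl and 2391, 3197 and 2434 TPM in RF.SAAR, with RF.Ctrl mouse 2 below all 3 restricted mice. On high fat it was at 5028, 7210 and 5141 TPM in HF.Ctrl and 1288, 1421 and 1239 TPM in HF.SAAR. Its difference was -0.48 ± 0.41 on regular fat and -2.38 ± 0.44 on high fat, so on high fat Mup17 stood beside Mup21 at the lower end of the members.

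The remaining members were less abundant. Mup1 ran from 4440 to 5998 TPM in RF.Ctrl, 3771 to 5021 in RF.SAAR, 7747 to 11332 in HF.Ctrl and 2990 to 4180 in HF.SAAR, with a difference of -0.46 ± 0.27 (log2, SE) on regular fat and -1.58 ± 0.27 on high fat. Mup16 ran from 1338 to 2018 TPM in RF.Ctrl, 1480 to 1733 in RF.SAAR, 1860 to 3404 in HF.Ctrl and 1002 to 1518 in HF.SAAR, with differences of -0.34 ± 0.34 and -1.31 ± 0.35. Mup10 was between 237 and 655 TPM in all 12 mice, with differences of -0.67 ± 0.33 and -0.65 ± 0.33. Its values carry little of the coding transcript, since 89.5% of its counts were assigned to a transcript with a retained intron.

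Across the 10 genes, the restricted and control mice did not overlap, with the restricted mice lower, by TMM-scaled CPM in 6 genes on regular fat (Mup3, Mup7, Mup10, Mup20, Mup21 and Mup22) and in 8 on high fat, the exceptions being Mup10 and Mup22, although the TPM values of Mup22 above did not overlap. Over all tested genes, 9.7% were lower without overlap on regular fat and 8.97% on high fat. The 12 other Mup genes gave 0 without overlap on regular fat and 9 on high fat. At an adjusted p under 0.05 (edgeR, quasi-likelihood test, Benjamini-Hochberg over all tested genes), 2 of 10 members were called lower on regular fat, Mup3 and Mup21, where 0.886% of all genes were called lower and 0.6% higher. On high fat 6 of 10 were called lower, namely Mup1, Mup3, Mup7, Mup17, Mup20 and Mup21, where 0.961% of all genes were called lower and 1.01% higher. Nothing is read from these counts, because the genes were selected on this contrast. They depended on the libraries: leaving out RF.SAAR mouse 1 or 2 left 0 members called on regular fat, leaving out RF.Ctrl mouse 1 left 1 there, and on high fat leaving out HF.SAAR mouse 1 left 2, HF.SAAR mouse 3 or HF.Ctrl mouse 1 left 3 and HF.Ctrl mouse 2 left 4. Calls over all genes moved too. On regular fat they were 218 with all mice, 124 without RF.SAAR mouse 1 and 99 without RF.Ctrl mouse 1. On high fat they were 289 with all mice and 119 without HF.SAAR mouse 1. They were 155 there without HF.SAAR mouse 3 and 110 without HF.Ctrl mouse 1. In the 7 mice low in acinar genes, with 1 mouse in each high-fat group, fewer members and fewer genes of the whole table were called. DESeq2 called 3 and 9 members, beside 591 and 595 of all genes. The median difference over the members was -0.56 on regular fat and -1.39 on high fat (log2), while the median of all tested genes was -0.0013 and -0.0014.

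**Figure D4:**
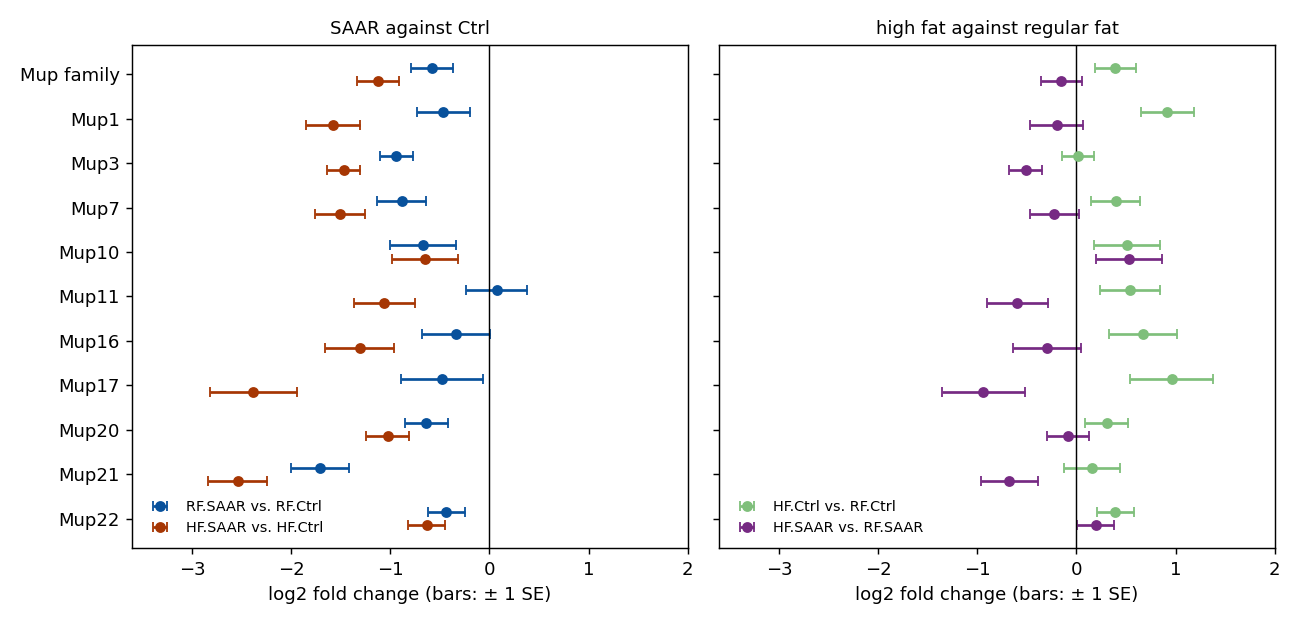
Log2 fold change (horizontal axis; bars ± 1 SE, edgeR) of the summed family and each Mup gene, left for SAAR against Ctrl on regular fat and on high fat, right for high against regular fat in control and in restricted mice. On the left, Mup11 on regular fat (0.07) is the only point above 0 and Mup21 on high fat (-2.54) the lowest; on the right the family lies at 0.39 in control and -0.15 in restricted mice.

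Because members differed unequally, the make-up of the family's counts differed between the groups. Mup7 contributed 32.7% ± 1.9 of the members' counts in RF.Ctrl and 26.6% ± 2.4 in RF.SAAR, and 32.9% ± 0.4 in HF.Ctrl and 25.0% ± 2.5 in HF.SAAR (SD, n = 3). Mup22 contributed 28.0% ± 2.0 in RF.Ctrl, 31.1% ± 3.2 in RF.SAAR, 28.1% ± 1.6 in HF.Ctrl and 39.4% ± 2.0 in HF.SAAR. By group mean, Mup22 and not Mup7 was the largest contributor in both restricted groups. Mup11 contributed 10.9% ± 2.2 in RF.Ctrl and 16.8% ± 1.8 in RF.SAAR, and was at 11.6% ± 2.2 in HF.Ctrl and 12.5% ± 0.9 in HF.SAAR. The share of Mup20 stayed between 9.8 and 10.52% in the 4 group means. Mup3 contributed 12.0% ± 1.5 in RF.Ctrl and 9.4% ± 1.1 in RF.SAAR, and 9.4% ± 1.2 in HF.Ctrl and 7.3% ± 0.1 in HF.SAAR. These shares describe the same contrast in another form and carry the same doubt for the near-identical copies.

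**Figure D5:**
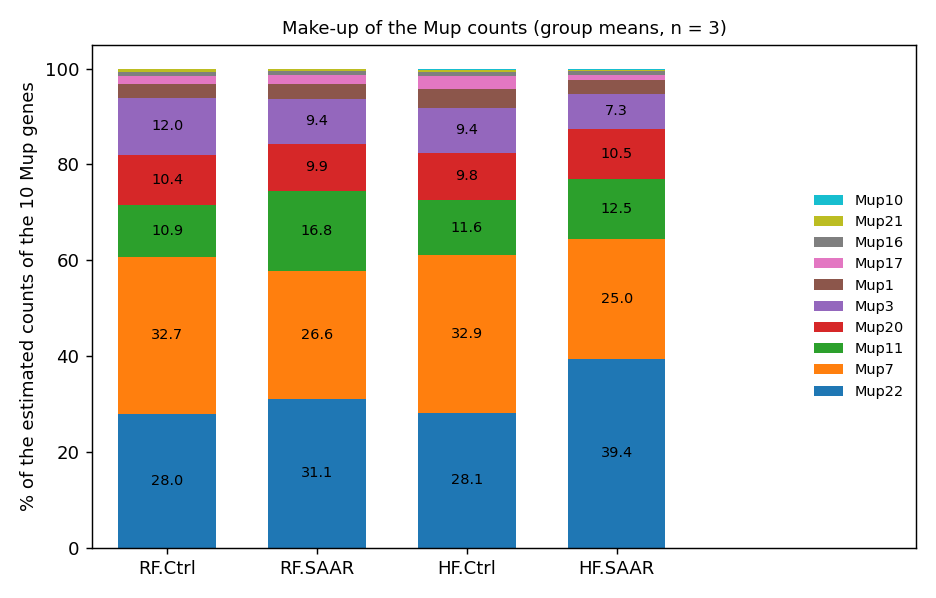
Make-up of the estimated counts of the 10 Mup genes (percent, vertical axis) as group means of 3 mice; each colour is a gene and numbers are printed for parts above 5%. Mup7 is the largest part in RF.Ctrl (32.7%) and HF.Ctrl (32.9%), and Mup22 in RF.SAAR (31.1%) and HF.SAAR (39.4%).

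Dietary fat was not the contrast by which the genes were chosen, and its effect was tested. The same mice enter both contrasts, so these tests are not fully free of that choice. The family's share of counts was higher on high fat by 0.671 percentage points on average over both diets (two-sided exact permutation of the fat labels within each diet, 400 relabelings, p = 0.495, where the smallest possible p is 0.005). In control mice the mean was higher on high fat by 2.30 percentage points, and in restricted mice it was lower by 0.959. The fitted difference of the summed family was 0.39 ± 0.21 (log2, SE) in HF.Ctrl vs. RF.Ctrl, with a 95% interval from -0.07 to 0.86, and -0.15 ± 0.21 in HF.SAAR vs. RF.SAAR, from -0.61 to 0.31. Neither passed the test (edgeR, adjusted p = 0.999 in both), and the interval in control mice still holds the fitted 1.31-fold higher level as well as no difference.

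For single members, HF.Ctrl vs. RF.Ctrl ranged from 0.016 (Mup3) to 0.96 (Mup17) and was above 0 in 10 of 10. The median of all genes was 0.0016. The members share reads, so 10 values in the same direction are not separate observations of 10 members. None was called, nor was any gene of the table (0%), while 2 members and 527 of all genes had an unadjusted p under 0.05, and DESeq2 called 0 members and 31 genes. Mup1 and Mup17 did not overlap between these groups, against 8.51% of all genes in either direction. Mup1 was at 4440 to 5998 TPM in RF.Ctrl and 7747 to 11332 in HF.Ctrl, a fitted difference of 0.92 ± 0.27 (log2, SE). Mup3 kept no direction, since its value was -0.048 under library size alone, and Mup11 was at -0.050 in the 7 mice low in acinar genes. HF.SAAR vs. RF.SAAR ranged from -0.94 (Mup17) to 0.53 (Mup10), with 8 of 10 members below 0 and a median of 0.0065 over all genes. Here too none was called, against 0.0477% of all genes, with 2 members at an unadjusted p under 0.05 and 0 called by DESeq2, and the smallest adjusted p was 0.665 for Mup3. Mup3 and Mup17 did not overlap between the restricted groups, against 10.1% of all genes. Pancreatic acinar genes were higher in some high-fat mice, as given above, and their part in these differences was not tested.

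Whether the difference between restricted and control mice depended on dietary fat was tested as an interaction term. This term is built from the contrasts known when the genes were chosen, so its test is not free of that choice. The family's interaction was -0.54 ± 0.30 (log2, SE; 95% interval -1.20 to 0.11; edgeR, adjusted p = 0.999). Of the members, 9 of 10 had a value below 0, from -1.90 ± 0.59 for Mup17 to -0.19 ± 0.26 for Mup22, with Mup10 at 0.02 ± 0.47. The median of all genes was 0.0094, and the members are not independent, since the copies share reads. None was called by edgeR or DESeq2, against 0.00682% of all genes by edgeR, and Mup1, Mup3, Mup11 and Mup17, 4 members, had an unadjusted p under 0.05. A larger difference on high fat than on regular fat thus did not pass the test, and the family's interval holds 0.

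Of the 12 other Mup genes, 11 passed the filter, and since they share reads with the members their tests are not independent of them. Mup19 was the most abundant of them, the 4th of all genes by mean TPM, at 29427 ± 5526 TPM in RF.Ctrl, 23868 ± 4343 in RF.SAAR, 40010 ± 6858 in HF.Ctrl and 20134 ± 5587 in HF.SAAR (SD, n = 3). Mup14 averaged 10782 TPM in RF.Ctrl and 8729 in RF.SAAR, and 15816 in HF.Ctrl and 6124 in HF.SAAR. In HF.SAAR vs. HF.Ctrl, Mup8, Mup12, Mup14 and Mup18 were called lower (edgeR), where 0.961% of all genes were called lower. Mup14 had a log2 fold change of -1.56 and an adjusted p of 0.0153. All 11 had values below 0, with a median of -1.37 beside -0.0014 over all genes. Their family was chosen on this contrast, so these calls too are a description. All 4 calls were lost without HF.Ctrl mouse 1 and without HF.SAAR mouse 1, those of Mup8, Mup12 and Mup18 also without HF.SAAR mouse 3, those of Mup8 and Mup18 without HF.Ctrl mouse 2 and that of Mup18 without HF.Ctrl mouse 3. Mup8 and Mup12 were not called without the low-count filter or with only the groups compared, and none of the 4 in the 7 mice low in acinar genes. Mup19, at -1.20, was not called, with an adjusted p of 0.124 (edgeR). In RF.SAAR vs. RF.Ctrl none of the 11 was called by edgeR or DESeq2, with 2 at an unadjusted p under 0.05, values from -0.74 (Mup8) to 0.29 (Mup6) and a smallest adjusted p of 0.194 (edgeR). Mup4, which did not pass the filter, Mup5 and Mup6 were the least abundant, at a mean of 0.402, 1.23 and 0.910 TPM.

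The growth hormone pathway, through which male liver transcribes Mup genes, was described with a list of 16 genes, of which 15 were tested. This list and those below were chosen with earlier results of these data known, so their calls are a description and no independent test. Over all genes, 0.886% were called lower and 0.6% higher on regular fat, and 0.961% and 1.01% on high fat. By edgeR, 1 gene of this list was called in each restriction comparison, Ghr, the growth hormone receptor, and DESeq2 called 3 in each. Ghr was at 509, 481 and 550 CPM in RF.Ctrl and 354, 296 and 323 CPM in RF.SAAR. It was at 495, 489 and 562 CPM in HF.Ctrl and 308, 278 and 297 CPM in HF.SAAR. All restricted mice were below all controls, and Ghr fell by 0.66 ± 0.098 on the log2 scale on regular fat (edgeR, adjusted p = 0.00482), with -0.81 ± 0.099 on high fat (adjusted p = 0.000761). Igf1, the liver-made growth factor that growth hormone induces, had values of -0.35 ± 0.11 and -0.40 ± 0.11 and did not pass by edgeR (adjusted p = 0.158 and 0.0958), while DESeq2 called Igf1 on high fat (-0.39, adjusted p = 0.0191). Stat5b, the factor that carries the signal to Mup genes, stood at 0.23 ± 0.16 and 0.28 ± 0.16 (adjusted p = 0.627 and 0.554). Cish and Socs2, feedback inhibitors that respond to each hormone pulse, varied widely between mice, Cish from 8.1 to 47.7 CPM and Socs2 from 14.3 to 46.5 CPM, and neither passed in either comparison. The list's median was -0.07 on regular fat and -0.04 on high fat (log2), beside -0.0013 and -0.0014 over all genes. In the 7 mice low in acinar genes Ghr was not called on either fat level, with fewer mice and values of -0.67 and -0.89.

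Of 19 other genes with male-biased expression in liver, all tested, 7 were called lower on regular fat and 10 on high fat (edgeR). Of all genes, 0.886% and 0.961% were called lower. The list's medians were -0.65 and -0.92 (log2), against -0.0013 and -0.0014 over all genes. It was chosen with earlier results of these data known. C6, a terminal complement component, lay between 249 and 310 CPM among RF.Ctrl mice and between 108 and 156 among RF.SAAR mice, and at 268 to 325 CPM in HF.Ctrl and 83.9 to 86.1 in HF.SAAR. Its log2 fold change was -1.09 ± 0.14 and -1.76 ± 0.14 (edgeR, adjusted p = 0.002 and 2e-05). Selenbp2, a selenium-binding protein, fell by 1.98 ± 0.27 on regular fat, with -3.12 ± 0.28 on high fat (adjusted p = 0.00498 and 0.000243). Ugt2b1, a glucuronosyltransferase, changed by -0.85 ± 0.14 and -0.82 ± 0.14 (adjusted p = 0.00818 and 0.00791), and Cyp2d9, a testosterone hydroxylase of male liver, changed by -0.65 ± 0.12 and -0.996 ± 0.12 (adjusted p = 0.0138 and 0.000572). In the 7 mice low in acinar genes the male-biased count was 2 on regular fat and 0 on high fat, where C6 stood at -1.69, Selenbp2 at -2.57, Ugt2b1 at -0.79 and Cyp2d9 at -0.79. The count was 3 on regular fat without RF.Ctrl mouse 1, Cyp2d9 among the lost calls, and 4 without RF.Ctrl mouse 3.

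Of 19 female-biased liver genes, 7 passed the filter, and Cyp17a1, a steroid hydroxylase and lyase, rose. It lay between 3.8 and 6.3 CPM among RF.Ctrl mice and between 12.3 and 24.7 among RF.SAAR mice, and at 1.6 to 2.6 CPM in HF.Ctrl and 23.5 to 59.0 in HF.SAAR. The increase was 1.91 ± 0.39 on regular fat and 4.08 ± 0.43 on high fat (log2, SE; edgeR, adjusted p = 0.0408 and 0.000908). On regular fat the call was lost when any of 9 mice was left out, RF.SAAR mouse 3 and HF.SAAR mice 2 and 3 being the exceptions, with values from 1.62 to 2.15 without a control or restricted mouse of that fat level. The 7 genes had medians of 0.43 and 0.70, beside -0.0013 and -0.0014 over all genes, and 6 of 7 on regular fat and 7 of 7 on high fat had values above 0. Only 1 of the 7, Cyp17a1, was called in each comparison (edgeR), where 0.6% and 1.01% of all genes were called higher. At an unadjusted p under 0.05 (edgeR) there was 1 gene on regular fat and 3 on high fat. The other 12 female-biased genes had too few counts to be tested in these males.

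A list of 13 further factors known to act on Mup genes, all tested, comprised receptors for androgen, glucocorticoid and thyroid hormone, hepatocyte nuclear factors and Zhx2. None was called by edgeR in either restriction comparison, with 1 and 2 at an unadjusted p under 0.05 and 1 called by DESeq2 in each, and medians of -0.12 and -0.19 (log2). Of 8 genes that respond to glucocorticoid or thyroid hormone, Dio1, the deiodinase that activates thyroid hormone, fell by 0.76 ± 0.17 on high fat (edgeR, adjusted p = 0.0399) and stood at -0.28 ± 0.17 on regular fat (adjusted p = 0.536). The Dio1 call on high fat was lost with library size alone and with length offsets, and on leaving out any single one of the 6 high-fat mice, RF.Ctrl mouse 3 or RF.SAAR mouse 2. No other gene of this list was called by edgeR, and on regular fat 1 had an unadjusted p under 0.05 and 1 was called by DESeq2.

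Among 10 other lipocalins tested, the orosomucoids, acute-phase carriers of basic drugs and steroids, fell on regular fat. Orm1 lay between 282 and 475 CPM among RF.Ctrl mice and between 92.4 and 154 among RF.SAAR mice, and at 304 to 445 CPM in HF.Ctrl and 139 to 208 in HF.SAAR. It fell by 1.76 ± 0.26 on regular fat (log2, SE; edgeR, adjusted p = 0.00781) and 1.14 ± 0.25 on high fat (adjusted p = 0.0444). Orm2 and Orm3, present at 0.053 to 9.8 CPM and able to share reads with Orm1, fell on regular fat by 1.95 ± 0.38 and 2.94 ± 0.65 (adjusted p = 0.0251 and 0.0389) and were not called on high fat. The Orm1 call on high fat was lost without the low-count filter and in 8 of the 12 fits that left out a mouse, HF.SAAR mouse 2, RF.Ctrl mouse 3 and RF.SAAR mice 1 and 3 being the exceptions. On regular fat Orm2 lost its call on leaving out any single regular-fat mouse but RF.Ctrl mouse 3. Orm3 lost it on leaving out any single regular-fat mouse, HF.Ctrl mouse 1 or HF.Ctrl mouse 2, and with length offsets. The list's median was -0.58 on regular fat and 0.04 on high fat, so lipocalins as a class did not share one direction.

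Of 25 other abundant secreted liver proteins, 3 fell on regular fat (Serpina3k, Serpina1c and Serpina1d) and 2 on high fat (Serpina3k and Serpina1c), all of them serpins, inhibitors of serine proteases whose genes also lie in near-identical copies. Serpina3k lay between 10195 and 14579 CPM among RF.Ctrl mice and between 5790 and 6740 among RF.SAAR mice, and at 10469 to 13966 CPM in HF.Ctrl and 5066 to 5730 in HF.SAAR. It fell by 0.92 ± 0.14 and 1.14 ± 0.14 on the log2 scale (edgeR, adjusted p = 0.00485 and 0.000707). Serpina1c fell by 0.60 ± 0.10 and 0.43 ± 0.10 (adjusted p = 0.00768 and 0.0345), and Serpina1d by 0.42 ± 0.08 on regular fat (adjusted p = 0.0219). The Serpina1c call on high fat was lost with library size alone (-0.27), length offsets or only the groups compared, and on leaving out RF.Ctrl mouse 2 or any single high-fat mouse. The Serpina1d call was lost with library size alone or only the groups compared, and on leaving out any single regular-fat mouse. The medians of the 25 genes were -0.21 and -0.14, beside -0.0013 and -0.0014 over all genes. Values were below 0 in 23 of 25 on regular fat and in 17 of 25 on high fat. The members' medians of -0.56 and -1.39 cannot be weighed against these, because the members were chosen on this contrast.

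Over the 45 pairs of members, Pearson's r of log2 CPM across the 12 mice ranged from 0.40 (Mup10 with Mup11) to 0.97 (Mup7 with Mup20), with a median of 0.82; these values carry the SAAR vs. Ctrl difference by which the genes were chosen, and the copies share reads. For deviations from the group means, r ranged from -0.16 (Mup10 with Mup21) to 0.98 (Mup1 with Mup16), with a median of 0.69 and 43 of 45 pairs above 0. Among 7521 other tested genes with a mean of at least 10 CPM, the 5 most like the family sum across the 12 mice were Acaa2, a thiolase of mitochondrial fatty acid oxidation (r = 0.93), Serpina3k (0.92), Mrpl32, a mitochondrial ribosomal protein (0.92), Tesk2, a protein kinase (0.92), and 1600012H06Rik (0.91). Acaa2 averaged 810 ± 68.4 CPM in RF.Ctrl, 686 ± 59.3 in RF.SAAR, 861 ± 46.8 in HF.Ctrl and 653 ± 47.3 in HF.SAAR (SD, n = 3). When deviations from the group means were compared instead, the 5 highest were Prelid3b (r = 0.98), Mrpl51 (0.96), Cop1 (0.95), Ptges3 (0.95) and Ssb (0.95), none of them among the first 5.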

How the data were processed

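Poly(A) RNA libraries from the 12 livers were sequenced as read pairs. The authors trimmed reads with cutadapt, checked them with FastQC and quantified transcripts with kallisto against an Ensembl mouse transcript set (GRCm38). The deposited files hold estimated counts, TPM and effective lengths for 118489 transcripts per mouse. The authors then used DESeq2. The labels' tags for fat content and diet appear exchanged, and groups were taken from both together.

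Estimated counts were summed by gene over the 116816 transcripts found in GENCODE M21 (36047 genes; the 1673 unmatched transcripts held 1.08% of counts) and rounded. Genes were tested with edgeR 4.0.16 (R 4.3.3; filterByExpr, TMM, robust quasi-likelihood fit over all 12 mice, Benjamini-Hochberg adjustment within each comparison, adjusted p under 0.05). The summed family replaced its 10 genes in a second table. Scripts were tested on simulated data. Coding sequences were aligned with Biopython 1.88. The members and the 12 gene lists were chosen with earlier results of these data known. Named genes were the members, other tested Mup genes, in each list up to 3 called genes per direction with the smallest p, Ghr, Stat5b, Igf1, Socs2 and Cish, and the 5 genes most correlated with the family in each of 2 ways. Alternatives were other scalings and filters, effective-length offsets, only the groups compared, DESeq2 1.42.0, all Mup genes, and each mouse left out. Depth was 16203094 to 21230092 counts per mouse, and the spread between mice includes counting error. The replicates are separate mice.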

Additional observations from a re-analysis of the deposited data

How the results depend on the processing

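The direction of the family difference in each comparison held under every alternative run. Leaving out each mouse gave -0.68 to -0.46 (log2) for restriction on regular fat and -1.34 to -0.93 on high fat, 0.20 to 0.54 between the control groups, -0.37 to -0.00076 between the restricted groups and -0.77 to -0.35 for the interaction, with 0.156 to 1.09 percentage points for the share on high against regular fat. The share difference on regular fat was -4.19 percentage points as a share of TPM, and on high fat -10.01 as a share of TPM and -7.52 with all Mup genes; these have another denominator or more genes by construction.

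Counts of calls moved more; the cause was not tested. Members called on high fat were 6, 9 with DESeq2, and 3 without the low-count filter or with only the groups compared. With library size alone, 425 genes were called on regular fat, 719 on high fat, 1 between the control groups and 4 between the restricted groups, and with DESeq2 591, 595, 31 and 85, with 16 for the interaction, against 218, 289, 0, 7 and 1. Without the filter the fat comparisons gave 3 and 14, and with only the groups compared high-fat restriction gave 190 and the fat comparison of controls 2. Growth hormone axis calls on regular fat were 2 with library size alone, no filter, at least 10 counts, length offsets or only the groups compared and 3 with DESeq2, and on high fat 2 with at least 10 counts and 3 with DESeq2, against 1. Female-biased calls on regular fat were 0 without the filter, and on high fat 2 with library size alone, length offsets or DESeq2, against 1. In the 7 mice low in acinar genes, chosen after seeing the data, fewer samples gave 81 genes, 1 member, 2 male-biased and 0 growth hormone axis genes on regular fat, and 6 genes, 0 members, 0 male-biased, 0 female-biased and 0 growth hormone axis genes on high fat, with 0 genes in HF.SAAR vs. RF.SAAR; there Mup3 (-0.022) and Mup11 (-0.050) in HF.Ctrl vs. RF.Ctrl, the Mup10 interaction (-0.36) and Socs2 on high fat (-0.081) turned sign.

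Leaving out each mouse gave 0 to 2 members, 87 to 244 genes, 3 to 7 male-biased, 0 to 1 female-biased and 1 to 2 growth hormone axis genes on regular fat, and 2 to 6 members, 110 to 310 genes and 1 to 2 growth hormone axis genes on high fat. The fat comparisons gave 0 to 2 and 1 to 7 genes and the interaction 0 to 2. Values near 0 turned sign. Mup3 in HF.Ctrl vs. RF.Ctrl ran from -0.081 to 0.15, and was -0.048 with library size alone and -0.010 with length offsets. The Mup10 interaction ran from -0.38 to 0.24. In HF.SAAR vs. RF.SAAR, Mup20 ran from -0.25 to 0.089 and Mup22 from -0.023 to 0.32. In RF.SAAR vs. RF.Ctrl, Mup11 ran from -0.090 to 0.26, Mup2 from -0.12 to 0.37 and Mup5 from -0.57 to 0.042. There Mup6 ran from -0.19 to 1.23, Mup9 from -0.41 to 0.26 (-0.041 with length offsets) and Socs2 from -0.80 to 0.055. Socs2 on high fat ran from -0.27 to 0.61. No paired analysis was possible because the labels give no replicate numbers: the mouse numbers used here follow the order of the samples and pair no mice.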
